A study of Mus musculus with 8 samples.

Results

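The genes described here encode enzymes of ADP-ribosylation that are linked to interferon, Parp9, Parp10, Parp11, Parp12, Parp14 and Dtx3l, together with Parp1 and Parp2, relatives that served as a comparison because they are not known as interferon-inducible. They were picked by symbol, with earlier results of these data known, and are 8 of the 27998 features in the count tables. The study followed hematopoietic stem and progenitor cells (HSPCs) of wild-type mice, 12 to 14 weeks old, at 3, 24 and 72 h after IFNα was injected under the skin at a dose of 50000 IU for each 20 g of body weight, and control mice received 100 µl of PBS. Lineage-negative, c-Kit+ (LK) bone marrow cells were sorted and enriched with LK CD150+ CD48- CD34- hematopoietic stem cells (HSCs), so that shares of cell types describe the sorted mixture. The cells of 4 mice per time point carried a hashtag antibody for each mouse and were pooled into a single droplet library, so that time point and library cannot be told apart. Every group carried the same genotype, and no group had another treatment.

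ADP-ribosylation is the transfer of ADP-ribose from NAD+ to a target, either as a single unit or as a chain. Parp1 and Parp2 sense DNA strand breaks and build chains, whereas Parp10, Parp11, Parp12 and Parp14 transfer single units, and several of these are known as interferon-stimulated genes (ISGs) with antiviral roles. Dtx3l is an E3 ubiquitin ligase of the deltex family that works in a complex with Parp9. Type I interferon acts through its receptor, and many of the genes it induces hold an interferon-stimulated response element in their promoters.

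In the whole compartment, each of the 6 interferon-linked genes was at its highest level at 3 h in all 4 mice, from 4.34-fold above control for Parp11 to 15.1-fold for Parp12. At 24 h, between 7.14% of the 3 h rise (Parp10) and 11.8% (Dtx3l) was left, and 5 of the 6 genes still passed the test. At 72 h, small differences of Dtx3l and Parp14 passed in the summed cells (log2 fold changes 0.33 and 0.24) but not within any of the 5 named classes of cells. Within classes the log2 fold changes ran from -0.035 to 0.48 for Dtx3l and from -0.47 to 0.49 for Parp14. For Parp14 these ends were HSC-like cells (95% interval -0.81 to -0.13) and myeloid progenitor-like cells (0.06 to 0.93), so that its direction was not the same in all classes. The standard errors of both genes were larger than in the summed cells, which also hold cells outside these classes. The part of either in the missed threshold was not tested. Parp1 stayed within 1.08-fold of control by its 95% interval at 3 h with TMM factors but was called lower with library size alone. Parp2 was 1.14-fold higher at 3 h with TMM factors, a call that was lost with library size alone.

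The libraries held 13310 cell barcodes, of which 10046 were kept, 2474 in control and 1661, 3462 and 2449 at 3, 24 and 72 h. Levels are UMI counts (unique molecular identifiers, which count RNA molecules) summed over the kept cells of a mouse and scaled to a common total with TMM factors (CPM), and the mouse was the replicate. A mouse contributed between 58 cells (control mouse 4) and 1240 cells, and between 1102706 and 26446327 UMIs. The median UMIs per cell were lowest at 3 h (12017, against 14763 to 18964.5 in the other libraries), and 17.2% of the barcodes of that library had no hashtag call, against 4.37% to 5.45%. HSC-like cells made up 17.0% of the kept control cells, and 32.4%, 24.3% and 29.6% at 3, 24 and 72 h, and myeloid progenitor-like cells fell from 29.4% to between 15.3% and 19.7%. Values of the whole compartment sum over this mixture, and levels within classes are therefore given further on. A gene counted as changed where the quasi-likelihood test of edgeR, fitted to all 16 mice together, gave a Benjamini-Hochberg adjusted p under 0.05 over the 12042 genes tested.

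Parp9, Dtx3l and Parp14 lie side by side on chromosome 16 of the mouse assembly GRCm38. Parp9 spans 35938470 to 35972605 on the plus strand, Dtx3l 35926511 to 35939151 on the minus strand, and Parp14 35832874 to 35871544 on the minus strand. The gene models of Parp9 and Dtx3l point away from each other and overlap by 682 bp at their 5' ends, while their 3' ends, where this assay counts, are 46.1 kb apart. The gap between Parp14 and Dtx3l is 55.0 kb. The other genes are single loci, with Parp10 on chromosome 15 (76231174 to 76243441), Parp11 (127446840 to 127494261) and Parp12 (39086410 to 39118349) on chromosome 6, Parp1 on chromosome 1 (180568924 to 180601254) and Parp2 on chromosome 14 (50807841 to 50821301).

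Since the interferon-linked genes moved together, their promoters were searched for the core of the interferon-stimulated response element, GAAA followed by any 2 bases and GAAA, and for the gamma-activated site, TTCNNNGAA, on both strands, from 250 bases before to 50 bases after the start. RefSeq promoters were matched for 5 of the 8 genes, Dtx3l, Parp11, Parp12, Parp1 and Parp2, with 2 starts for Parp11. The window of the first Parp11 start held both motifs, the response element on the opposite strand from 44 to 35 bases before the start and the gamma-activated site from 37 to 29 bases before it, so that they overlap. The other windows held neither. Of 32841 promoters of this length, 3.44% held the first motif, 8.3% the second and 0.454% both. A match describes letters in this window and not a bound site. The 250 bases before the start are shown 5' to 3' on the strand of the gene for 3 of the interferon-linked genes, with the letters of both motifs in capitals where they occur, from the RefSeq sequences of GRCm38.p6. They lie at chr16:35939028-35939277 on the minus strand for Dtx3l, within the Parp9 gene model, at chr6:39118350-39118599 on the minus strand for Parp12, and at chr6:127446590-127446839 on the plus strand for Parp11.
Dtx3l: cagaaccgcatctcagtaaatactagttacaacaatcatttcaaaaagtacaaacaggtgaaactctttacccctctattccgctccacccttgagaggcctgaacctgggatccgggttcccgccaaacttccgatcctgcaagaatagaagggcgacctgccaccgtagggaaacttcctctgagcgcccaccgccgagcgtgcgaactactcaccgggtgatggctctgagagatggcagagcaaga
Parp12: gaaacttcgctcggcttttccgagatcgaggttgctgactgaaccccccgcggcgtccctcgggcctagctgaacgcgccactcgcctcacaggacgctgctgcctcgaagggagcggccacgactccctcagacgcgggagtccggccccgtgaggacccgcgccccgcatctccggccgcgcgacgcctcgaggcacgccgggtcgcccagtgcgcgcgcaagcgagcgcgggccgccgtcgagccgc
Parp11, first start: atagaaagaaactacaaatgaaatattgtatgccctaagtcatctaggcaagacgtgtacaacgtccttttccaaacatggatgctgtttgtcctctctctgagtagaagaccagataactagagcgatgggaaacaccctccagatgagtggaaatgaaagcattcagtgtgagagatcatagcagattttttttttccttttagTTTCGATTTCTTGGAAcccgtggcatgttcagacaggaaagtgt

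Parp9 and its ligase partner Dtx3l both rose at 3 h and fell towards the control level by 72 h. Parp9 was at 16.4, 15.4, 16.1 and 17.4 CPM in the 4 control mice, 166, 161, 165 and 145 CPM at 3 h, 29.2, 35.8, 30.6 and 30.8 CPM at 24 h, and 16.4, 18.7, 18.2 and 17.7 CPM at 72 h. Every mouse at 3 and 24 h lay above every control mouse, and the 72 h mice overlapped with control. The log2 fold change of Parp9 was 3.31 at 3 h (standard error 0.0698, adjusted p = 1.18e-20, edgeR), 0.99 at 24 h (standard error 0.0706, adjusted p = 5.28e-10) and 0.14 at 72 h (standard error 0.0800, adjusted p = 0.175). The 95% interval of the 72 h difference runs from -0.03 to 0.32.

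Dtx3l was at 23.6, 24.4, 22.5 and 20.9 CPM in control, 152, 176, 171 and 137 CPM at 3 h, 36.6, 43.0, 36.7 and 39.2 CPM at 24 h, and 29.9, 26.7, 32.4 and 28.0 CPM at 72 h. Here the mice of all 3 time points lay above every control mouse. Its log2 fold change was 2.77 at 3 h (standard error 0.0810, adjusted p = 4.94e-18, edgeR), 0.74 at 24 h (adjusted p = 4.18e-07) and 0.33 at 72 h (standard error 0.0866, adjusted p = 0.00513). The UMIs of Dtx3l per UMI of Parp9, a ratio chosen after its values were seen and given without a test, had a median of 1.42 over the control mice (1.20 to 1.58), then 0.992 for the 3 h mice (0.919 to 1.10), 1.23 for the 24 h mice (1.20 to 1.27) and 1.68 for the 72 h mice (1.43 to 1.82). In the summed cells the ratio was thus lowest at 3 h, with no overlap with the other groups, and the control and 72 h mice overlapped. Within each named class of cells the 3 h mice overlapped with control, as in HSC-like cells (0.771 to 1.03 against 0.971 to 1.97). In myeloid progenitor-like cells (1.10 to 1.43 at 3 h, control median 1.77) the overlap came through control mouse 4 alone. Its ratio of 0.625 rests on 5 UMIs of Dtx3l and 8 of Parp9. The class median was lowest at 3 h except in erythroid progenitor-like cells, where it was 0.790 at 3 h and 0.764 at 24 h. The part of shifting class shares in the summed ratio was not tested.

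Parp14, a large transferase with macrodomains, was at 11.3, 11.6, 12.1 and 11.3 CPM in control and at 126, 138, 132 and 129 CPM at 3 h. It was at 20.2, 22.7, 19.0 and 22.6 CPM at 24 h and at 12.1, 14.1, 14.9 and 14.4 CPM at 72 h. The 3 and 24 h mice lay above every control mouse, and at 72 h mouse 1 lay within the control range while the other mice lay above it. The log2 fold change was 3.49 at 3 h (standard error 0.0708, adjusted p = 6.31e-21, edgeR), 0.87 at 24 h (adjusted p = 9.75e-09) and 0.24 at 72 h (standard error 0.0839, adjusted p = 0.0263). The 72 h call of Parp14 was lost when any of control mice 1 and 2 or of 72 h mice 2, 3 and 4 was left out, at log2 fold changes of 0.20 to 0.24. It was also lost with cells thinned to 5000 UMIs, where the difference was -0.049.

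Among the remaining single-unit transferases, Parp12, which carries CCCH zinc fingers, had the lowest control level and the largest fold change of the 6 genes, while the rise in CPM was larger for Parp9, Dtx3l and Parp14. It was at 4.20, 4.09, 4.52 and 5.22 CPM in control, 68.7, 66.9, 64.1 and 61.2 CPM at 3 h, 8.96, 12.6, 7.53 and 9.82 CPM at 24 h, and 5.39, 6.96, 5.90 and 3.89 CPM at 72 h. The groups at 3 and 24 h did not overlap with control, and the 72 h mice lay on both sides of it. The log2 fold change was 3.92 at 3 h (standard error 0.137, adjusted p = 1.41e-16, edgeR), 1.22 at 24 h (adjusted p = 2.65e-06) and 0.35 at 72 h (adjusted p = 0.128, 95% interval -0.04 to 0.74).

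Parp10 was at 5.49, 6.08, 6.22 and 6.09 CPM in control and at 43.1, 38.4, 43.1 and 38.4 CPM at 3 h. At 24 h, 3 mice at 8.75 to 9.75 CPM lay above control and mouse 1, at 5.66 CPM, within it. The log2 fold change was 2.78 at 3 h (adjusted p = 1.34e-14, edgeR), 0.54 at 24 h (adjusted p = 0.00363) and 0.13 at 72 h (adjusted p = 0.525). Parp11, which carries a WWE domain, had the smallest fold change. It was at 8.50, 8.23, 8.94 and 6.09 CPM in control and at 36.1, 43.4, 38.9 and 28.7 CPM at 3 h, which is 2.12 on the log2 scale (standard error 0.103, adjusted p = 7.17e-14, edgeR). At 24 h it was at 9.55 to 10.6 CPM, above every control mouse, but missed the threshold (log2 fold change 0.28, adjusted p = 0.0508), as it did at 72 h (0.21, adjusted p = 0.145). The 24 h miss depended on the processing. Parp11 passed with edgeR's likelihood ratio test (adjusted p = 0.0174) and, in the quasi-likelihood test, with RLE in place of TMM factors (adjusted p = 0.0431). It also passed without the 5% of cells with the most UMIs (adjusted p = 0.0210), but not with DESeq2 or thinned cells.

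**Figure D1:**
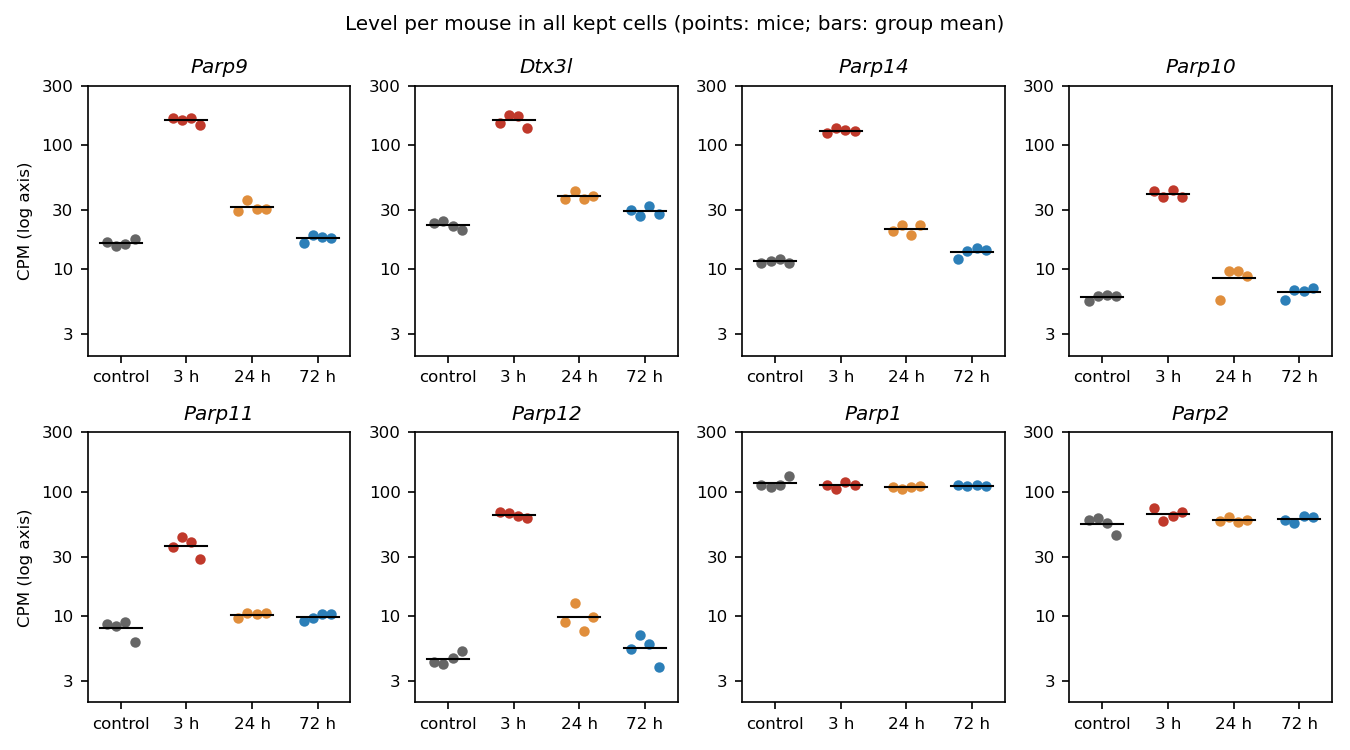
Each panel plots a gene's level in CPM (log axis) in the whole compartment for control and for 3, 24 and 72 h, with a point per mouse (4 per group) and a bar at the group mean. The 6 interferon-linked genes stand highest at 3 h in every mouse, whereas Parp1 stays between 106 and 134 CPM and Parp2 between 44.4 and 73.3 CPM.

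Counted over the 6 interferon-linked genes, 6 were changed and higher at 3 h, where 19.7% of all tested genes were, 5 at 24 h (14.5% of all genes) and 2 at 72 h (18.9%). With a log2 fold change over 1 in addition, the count was 6 at 3 h (5.22% of all genes), 1 at 24 h, Parp12 (1.46%), and 0 at 72 h (1.7%). The median log2 fold change of the 6 genes was 3.05, 0.80 and 0.23 at 3, 24 and 72 h, against -0.03, 0.00 and 0.02 over all tested genes. These comparisons share the 4 control mice.

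Parp1 and Parp2 moved little. Parp1 was at 112, 108, 112 and 134 CPM in control and at 113, 106, 120 and 113 CPM at 3 h, and its 12 treated values all lay between 106 and 120 CPM. Its log2 fold changes were 0.00 at 3 h (95% interval -0.10 to 0.11), -0.06 at 24 h (-0.16 to 0.04) and -0.02 at 72 h (-0.12 to 0.08), none past the threshold. With library size alone in place of TMM factors Parp1 was at -0.15 at 3 h (adjusted p = 0.0174, edgeR), past the threshold in the lower direction. Parp2 was at 59.2, 60.8, 56.2 and 44.4 CPM in control and at 73.3, 58, 63.5 and 68.0 CPM at 3 h. Of all tested genes, 38.8%, 28.3% and 37.4% were changed in either direction at 3, 24 and 72 h. The groups overlapped, yet Parp2 passed the test at 3 h (log2 fold change 0.18, standard error 0.0697, adjusted p = 0.0414, edgeR), and it did not at 24 h (0.03) or 72 h (0.06, 95% interval -0.08 to 0.20). With library size alone in place of TMM factors Parp2 was at 0.03 at 3 h (adjusted p = 0.810, edgeR), so that the call was lost. It was also lost without the filter on low counts (adjusted p = 0.0584) and with cells thinned to 5000 UMIs (adjusted p = 0.142). The same held when control mouse 1, 3 or 4 or 3 h mouse 1, 3 or 4 was left out, where the log2 fold change lay between 0.12 and 0.20.

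The difference between the interferon-linked genes and their relatives was tested within mice, as the log2 ratio of each gene to the mean of Parp1 and Parp2, and the 4 treated mice were set against the 4 control mice in an exact permutation test (two-sided), whose smallest possible p is 0.029. At 3 h, the ratio of each of the 6 genes rose, by 2.08 (Parp11) to 3.71 (Parp12) on the log2 scale (exact p = 0.029, adjusted p = 0.0429 over 18 tests). At 24 h, 5 of the 6 ratios rose, by 0.37 (Parp11) to 1.06 (Parp12), at the same p, and that of Parp10 was higher by 0.46 (exact p = 0.114). At 72 h, only the ratio of Dtx3l passed, at 0.32 higher (exact p = 0.029, adjusted p = 0.0429), and the other 5 differences lay between 0.08 and 0.28. This pass at 72 h depends on the joint adjustment, in which the 3 h ratios and most 24 h ratios were at the same smallest p. An adjustment over the 72 h ratios alone was not run. With Parp1 alone as the reference 2 ratios passed at 72 h, and with Parp2 alone none. Ratios of other genes to Parp1 and Parp2 were not tested, so these counts have no share of all genes beside them.

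**Figure D2:**
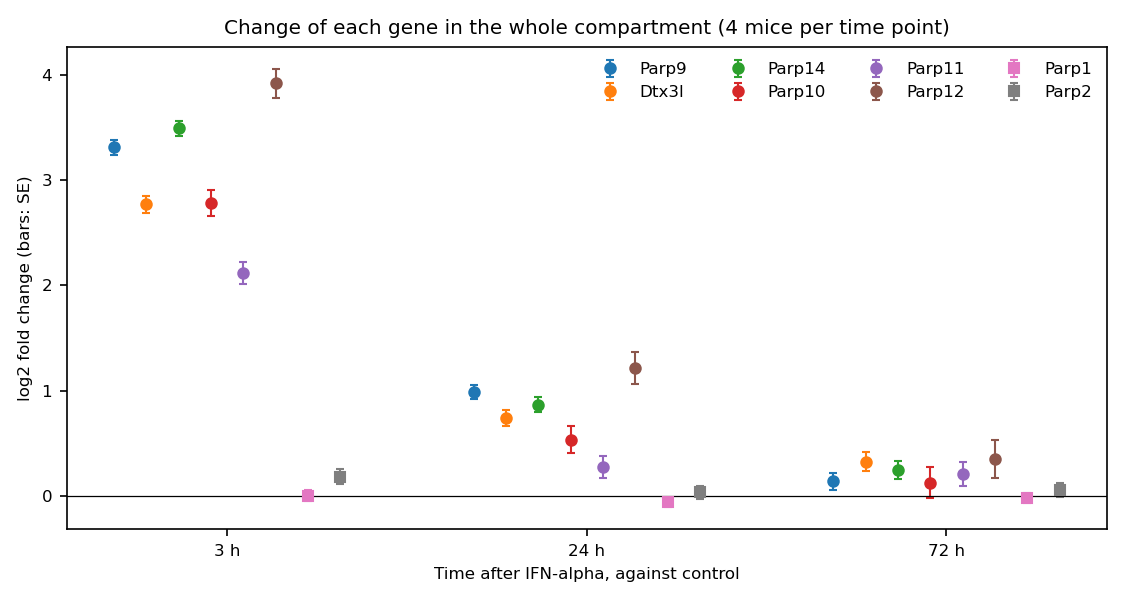
The log2 fold change against control in the whole compartment is plotted for each gene at 3, 24 and 72 h, with bars for the standard error (4 mice per time point). Circles (interferon-linked genes) lie between 2.12 and 3.92 at 3 h and approach 0 by 72 h, and squares (Parp1 and Parp2) lie between -0.06 and 0.18 throughout.

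The decline fell mostly between 3 and 24 h. From 3 to 24 h each of the 6 genes fell (16.3% of all tested genes were changed and lower), with log2 fold changes from -1.84 for Parp11 (adjusted p = 3.13e-13, edgeR) to -2.70 for Parp12 (adjusted p = 6.63e-15). From 24 to 72 h, 4 of the 6 fell further (5.38% of all genes), Parp12 by 0.86 on the log2 scale (adjusted p = 0.000451, edgeR), Parp9 by 0.85, Parp14 by 0.62 and Dtx3l by 0.41. Parp10 (log2 fold change -0.41, adjusted p = 0.0550) and Parp11 (-0.06, adjusted p = 0.779) did not pass in this step. Of the 3 h rise in CPM, 10.7% was left at 24 h for Parp9, 7.96% for Parp14, 7.89% for Parp11 and 8.61% for Parp12. At 72 h, 4.68% of the rise was left for Dtx3l and 6.62% for Parp11, against at most 1.93% for the other 4 genes.

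Some calls at 24 and 72 h were lost in a fit that differed in weights, test and mice. With equal weight for the 5 named classes in place of the sum over all cells, limma-trend in place of edgeR and 15 mice, the 3 h differences remained past the threshold, whereas Dtx3l at 72 h was 0.16 higher (adjusted p = 0.200) and Parp14 0.04 lower (adjusted p = 0.856), both on the log2 scale. Parp10 at 24 h was 0.32 higher under equal weight (adjusted p = 0.172). Its 24 h call was also lost in edgeR on the summed cells with cells thinned to 5000 UMIs (0.48 higher, adjusted p = 0.175). The share of HSC-like cells rose from 17.0% in control to 29.6% at 72 h. Among the classes, HSC-like cells had the highest mean control level of each interferon-linked gene, not of Dtx3l and Parp14 alone. The part of this share in the lost calls was not tested. Lineage depletion had used antibodies to Ter119, B220, Gr-1 and CD11b as well as CD8 and CD4. Of the cells that this would mostly remove, the summed T and NK cell markers (4 of the 5 listed were in the tables) were at 341 to 620 CPM in control and 290 to 388 CPM at 3 h. Cd3e was at 0 from 3 h on. Ncr1 was also at 0 at 24 and 72 h, where the 2 listed genes with UMIs summed to 380 to 428 and 324 to 371 CPM. The summed B cell markers were at 28.3 to 60.7 CPM over all mice, with Ms4a1 at 0 from 3 h on. Cd79a, on the B cell list, was among the 10 leading genes of an HSC-like cluster. Macrophage markers stayed under 13.5 CPM and mature neutrophil markers under 7.66 CPM. Their part in the results was not tested.

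The classes were rebuilt by clustering control cells without the 8 genes, and treated cells took the label of their nearest control cells. The HSC-like class (421 control cells) was marked by Hlf and Ly6a, the LMPP-like class (397 cells, lymphoid-primed progenitors) by Dntt and Flt3, the myeloid progenitor-like class (728 cells) by Mpo, Elane, Csf1r and S100a8, the erythroid progenitor-like class (229 cells) by Car1 and Hba-a1, and the megakaryocyte (MK) progenitor-like class (279 cells) by Pf4 and Itga2b. The smaller HSC-like cluster, 131 of the 421 control cells, was led by Jchain, Mzb1 and Ltb, ahead of Ly6a and Hlf. Ly6a encodes Sca-1, whose expression the study reports as increased by IFNα. The ISG Ifi44 was among the 10 leading genes of an HSC-like cluster, and Ifit1, Iigp1 and Isg15 among those of the smaller LMPP-like cluster. The larger LMPP-like cluster, 290 of the 397 control cells, was led by Ms4a2, Rnase12 and Cpa3, genes of basophils and mast cells, ahead of Dntt and Flt3. The clusters within a class differed between groups. The S100a8 cluster was 26.1% of the myeloid progenitor-like class in control and 7.28%, 8.35% and 9.87% at 3, 24 and 72 h, the Csf1r cluster 35% in control and 57.9%, 56.4% and 50.7%, and the smaller LMPP-like cluster 27% of its class in control and 16.7%, 13.2% and 12.4%. The Hba-a1 cluster was 38% of the erythroid progenitor-like class in control and 26.8%, 25.8% and 30.7% at 3, 24 and 72 h. Its control cells had a median of 52005 UMIs, against 21860.5 in the Car1 cluster of that class. The part of these clusters in the class results and in the differences between classes was not tested. Without the listed interferon genes in clustering and transfer, 81.0% of the treated cells received the same class. Control mouse 4 entered the HSC-like class with 12 cells and the myeloid progenitor-like class with 16 cells and had too few cells for the other classes.

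At 3 h, each of the 6 interferon-linked genes rose in each of the 5 classes, a count of 30 of 30. Between 8.24% (MK progenitor-like) and 13.8% (myeloid progenitor-like) of all tested genes of a class were changed and higher at 3 h, and the shares of the remaining classes were 12.8% (HSC-like), 10.6% (LMPP-like) and 9.48% (erythroid progenitor-like). The smallest rise was that of Parp11 in myeloid progenitor-like cells, from 6.84, 6.95, 7.58 and 0 CPM in control to 14.3, 19.8, 20.6 and 10.6 CPM (log2 fold change 1.26, standard error 0.214, adjusted p = 2.56e-05, edgeR). No overlap was seen there, although the control mouse at 0 rests on 16 cells. The largest was that of Parp12 in erythroid progenitor-like cells, from 2.30, 2.24 and 2.41 CPM to 45.0, 58.3, 62.8 and 55.1 CPM (log2 fold change 4.60, standard error 0.306, adjusted p = 1.03e-13). Its control level rests on 5 to 7 UMIs per mouse.

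At 3 h, HSC-like cells held the highest levels in CPM of 5 of the 6 interferon-linked genes, given here as a description without a test. A level in CPM is a share of the UMIs of a class, not an amount per cell. The median UMIs per cell at 3 h were 8812.5 in HSC-like, 11236 in MK progenitor-like and 14125 in LMPP-like cells. They were 20331 in erythroid progenitor-like and 25046 in myeloid progenitor-like cells, and UMIs of these genes per cell were not compared. In control, Parp9 was at 24.5 to 37.8 CPM in HSC-like, 20.0 to 26.2 in LMPP-like, 8.06 to 19.6 in MK progenitor-like, 10.9 to 16.9 in myeloid progenitor-like and 8.07 to 14.2 CPM in erythroid progenitor-like cells. The HSC-like and LMPP-like mice overlapped, as did the mice of the other 3 classes, and every LMPP-like mouse lay just above those 3 classes. At 3 h, Parp9 was at 252 to 290 CPM in HSC-like cells, clear of all other classes, and at 64.2 to 75.9 CPM in myeloid progenitor-like cells, below all others, with the LMPP-like (133 to 145), MK progenitor-like (118 to 180) and erythroid progenitor-like mice (133 to 175) overlapping. Parp14 was also highest in HSC-like cells at 3 h, with 212 to 239 CPM in HSC-like cells and at most 145 CPM elsewhere. Dtx3l was at 207 to 269 CPM in HSC-like and 81.0 to 104 CPM in myeloid progenitor-like cells, the latter meeting the erythroid progenitor-like mice at 103 to 148 CPM. Parp12 was at 103 to 130 CPM in HSC-like and at most 83.2 CPM in other cells, and Parp11 at 63.9 to 81.3 and at most 45.0 CPM. The exception was Parp10, whose HSC-like mice (44.7 to 55.5 CPM) overlapped with the LMPP-like and erythroid progenitor-like mice. For Parp1 the class means at 3 h lay between 104 and 120 CPM, with 118 CPM in HSC-like cells.

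**Figure D3:**
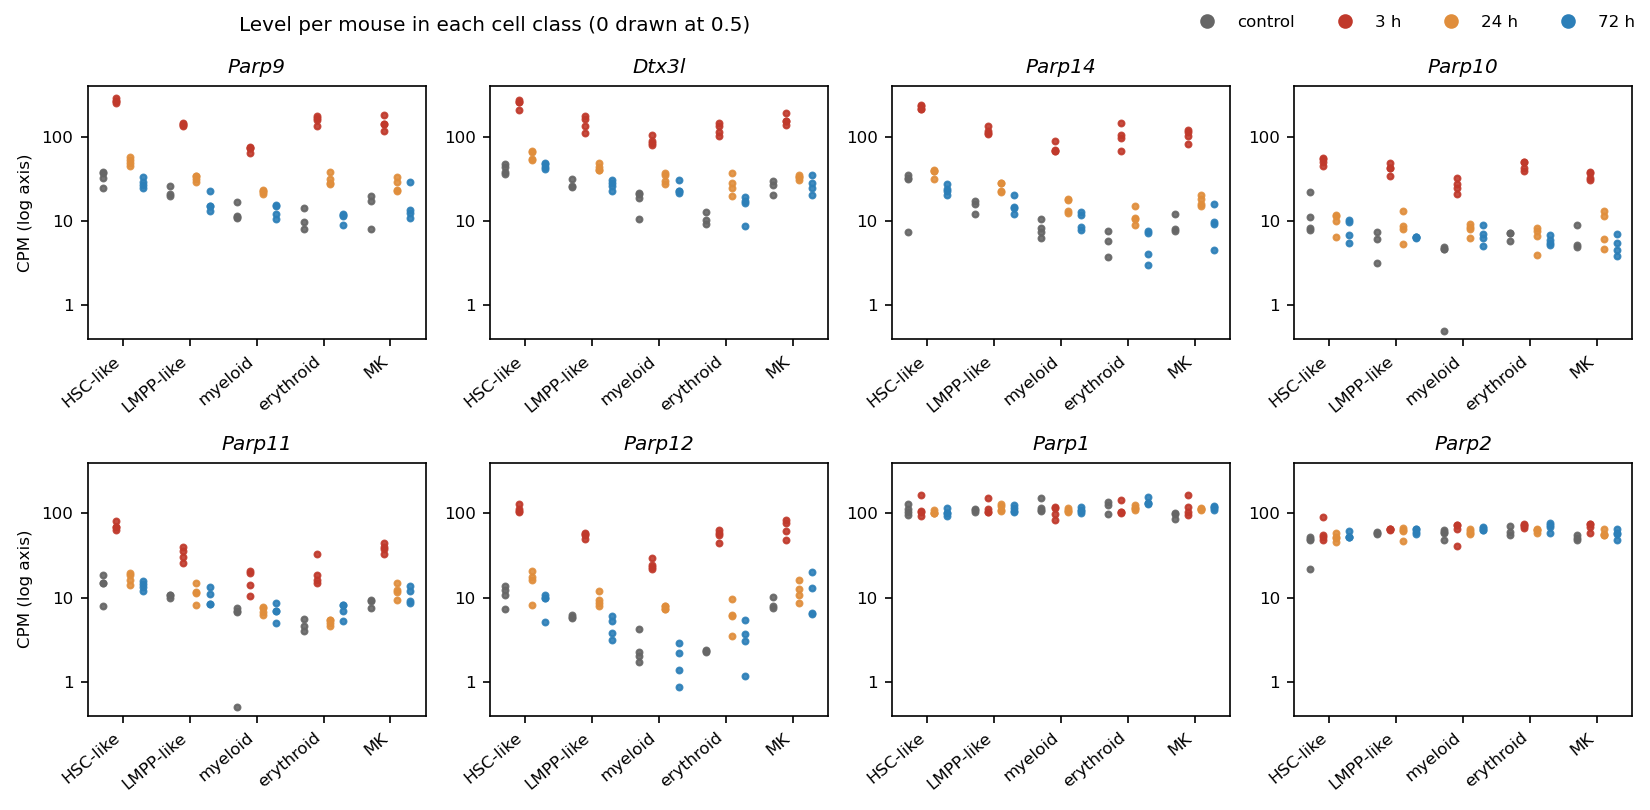
Each panel plots a gene's level in CPM (log axis) per mouse in 5 cell classes, with colors for control, 3, 24 and 72 h and 3 or 4 mice per group, and a level of 0 drawn at 0.5. The 3 h points lie above the control points in every class for the 6 interferon-linked genes, and the points of Parp1 and Parp2 overlap with control in 25 of 30 combinations of gene, class and time point, the exceptions being Parp2 at 3 h (LMPP-like and MK progenitor-like) and 72 h (myeloid progenitor-like) and Parp1 at 24 and 72 h (MK progenitor-like). These 5 lie above control. The share of all genes without overlap is not given, so this count has no background.

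At 24 h, 16 of the 30 gene and class pairs remained higher, and the genes that passed were not the same in each class. These counts come from separate fits and are no test of a difference between classes, which is given further on. In myeloid progenitor-like cells 5 of the 6 genes passed (8.99% of all tested genes of the class were changed and higher), all but Parp11, led by Parp12 with 2.02, 1.74, 2.27 and 4.22 CPM in control and 7.40, 8.01, 7.30 and 8.01 CPM at 24 h. The log2 fold change was 1.91 (standard error 0.205, adjusted p = 1.11e-08, edgeR), and the groups did not overlap. In erythroid progenitor-like cells 4 of 6 passed (5.9% of all genes), Parp9 (1.57), Parp12 (1.46), Dtx3l (1.32) and Parp14 (1.05). In LMPP-like cells 3 of 6 passed (3.71%), Parp14, Dtx3l and Parp9, with log2 fold changes of 0.53 to 0.69. In HSC-like cells 2 of 6 passed (4.07%), Parp9 at 0.67 (adjusted p = 0.000681) and Dtx3l at 0.58 (adjusted p = 0.00236), and in MK progenitor-like cells 2 of 6 (2.96%), Parp9 (0.94) and Parp14 (0.91). Leaving out single mice lowered the count to 2 in erythroid progenitor-like cells (control mouse 3 or 24 h mouse 2) and to between 0 and 1 in MK progenitor-like cells (control mouse 1 or 3, or 24 h mouse 2, 3 or 4). Parp14 in HSC-like cells was at 39.1, 40.1, 31.2 and 39.4 CPM at 24 h against 35.2, 31.7, 32.8 and 7.36 CPM in control (0.21, adjusted p = 0.462), where the lowest control value was a single UMI in control mouse 4.

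At 72 h, 0 of the 30 pairs passed edgeR's test in either direction. Of all tested genes, 5.05% were changed in HSC-like, 5.11% in LMPP-like, 15.4% in myeloid progenitor-like, 5.1% in erythroid progenitor-like and 3.86% in MK progenitor-like cells. The nearest to the threshold was Parp14 in HSC-like cells, at 20.7, 27.4, 24.2 and 22.9 CPM, below 3 of the 4 control mice (log2 fold change -0.47, standard error 0.155, adjusted p = 0.0742, edgeR). Without control mouse 4 the log2 fold change was -0.51 and passed the threshold (adjusted p = 0.0344, edgeR). The medians of the 6 log2 fold changes at 72 h ran from -0.24 in HSC-like to 0.29 in myeloid progenitor-like cells. Parp1 and Parp2 passed in no class at any time point, and their largest differences were in MK progenitor-like cells at 3 h (Parp1 0.38, adjusted p = 0.0570, and Parp2 0.41, adjusted p = 0.0885).

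Whether a gene changed by a different amount in another class than in HSC-like cells was tested by interaction terms in a fit over 5 classes with the mouse as a block, with 24 differences of the 6 genes per time point. At 3 h, 4 of 24 passed. In erythroid progenitor-like cells the rises of Parp14 (1.29 larger on the log2 scale, standard error 0.307, adjusted p = 0.00402, edgeR), Parp12 (1.31 larger, adjusted p = 0.0253) and Dtx3l (0.85 larger, adjusted p = 0.029) exceeded those in HSC-like cells. In myeloid progenitor-like cells the rise of Parp11 was 1.09 smaller (standard error 0.262, adjusted p = 0.00581). Over all 10791 genes of this fit, 4.74% passed in erythroid progenitor-like, 3.67% in myeloid progenitor-like, 0.426% in LMPP-like and 0.0371% in MK progenitor-like cells at 3 h. At 24 h, 3 of 24 passed, Parp12 (1.46 larger, adjusted p = 0.00163) and Parp14 (0.87 larger, adjusted p = 0.0253) in myeloid progenitor-like cells and Parp9 (0.85 larger, adjusted p = 0.0342) in erythroid progenitor-like cells. The background at 24 h was 2.09% in myeloid progenitor-like, 3.93% in erythroid progenitor-like, 0.0834% in LMPP-like and 0% in MK progenitor-like cells. At 72 h none of the 24 passed (smallest adjusted p = 0.121), against 0.51% of all genes in myeloid progenitor-like, 1.01% in erythroid progenitor-like, 0.0371% in LMPP-like and 0.00927% in MK progenitor-like cells, and of the 8 differences of Parp1 and Parp2 none passed at any time point. The control level of Parp12 was 2.24 to 2.41 CPM in erythroid progenitor-like and 7.36 to 13.9 CPM in HSC-like cells. With limma-trend on within-mouse differences in place of edgeR none of these 7 passed, and with control mouse 4 left out in addition that of Parp11 did (1.25 smaller). Leaving out control mouse 2 or 3 or 3 h mouse 3 lowered the 3 h count to 1 or 2, and leaving out control mouse 2 or 3 or 24 h mouse 2 or 4 lowered the 24 h count to 1.

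**Figure D4:**
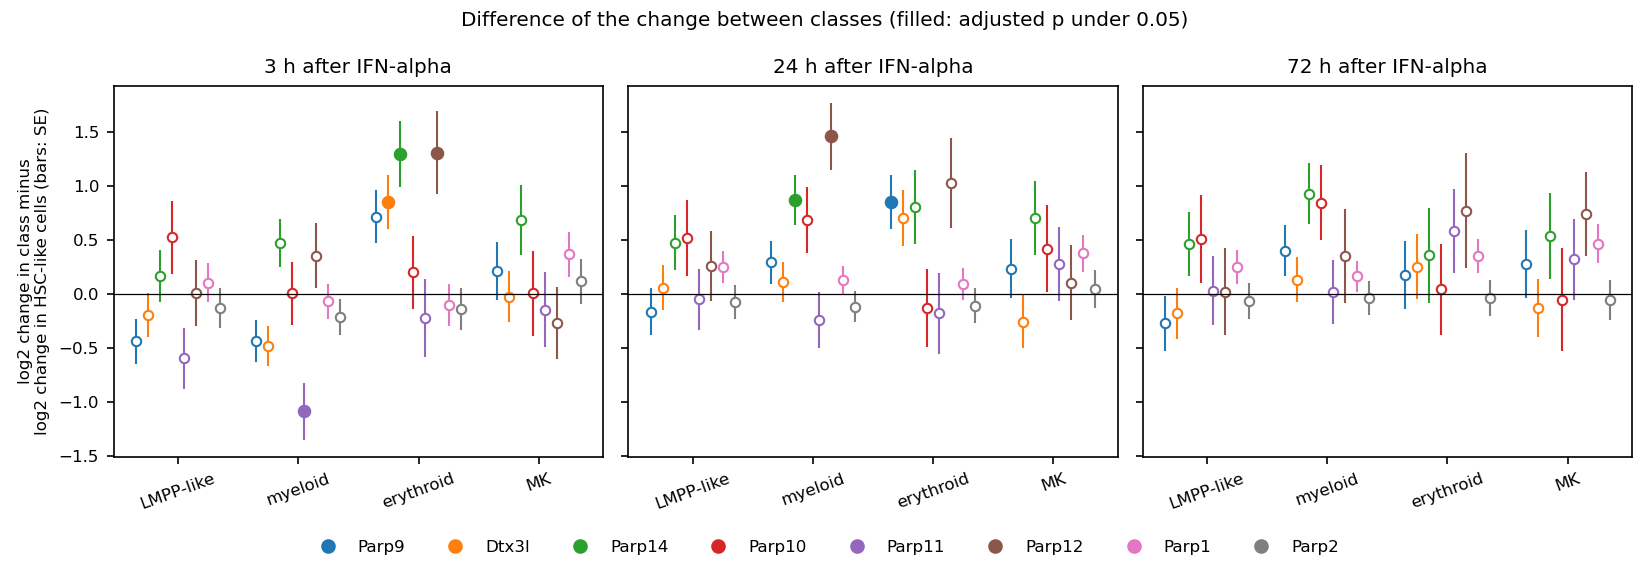
For each gene, the log2 change against control in a class minus the log2 change in HSC-like cells is plotted at 3, 24 and 72 h, with bars for the standard error and filled circles for an adjusted p under 0.05. Filled circles are 4 at 3 h, 3 at 24 h and 0 at 72 h, and those of Parp14, Parp12, Dtx3l and Parp9 lie above 0 while that of Parp11 lies below.

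The share of cells with at least 1 UMI of any of the 6 genes was compared after thinning each cell to 5000 UMIs, which left out 199 of the 10046 cells (35 control cells, 61 of the 3 h, 35 of the 24 h and 68 of the 72 h library). Per mouse of the whole compartment it was 29.8% to 34.3% in control. It reached 86.6% to 91.4% at 3 h, then 42.8% to 50.3% at 24 h and 33.2% to 39.8% at 72 h. The 3 and 24 h mice lay above every control mouse, and the 72 h mice overlapped with control. Without thinning the shares were 69.0% to 74.0% in control and 99.0% to 99.7% at 3 h. The share for Parp1 or Parp2 was 51.3% to 61.4% in control and 49.0% to 53.2% at 3 h. In HSC-like cells the share for the 6 genes was 41.7% to 53.1% in control and 95.2% to 98.9% at 3 h, and in erythroid progenitor-like cells 17.1% to 26.5% and 78.8% to 92.9%. As a measure of free RNA, Elane, a granule gene of myeloid cells, had a UMI in 19.1% to 23.3% of erythroid progenitor-like cells in control and in 4.55% to 11.9% at 3 h, at median depths of 29257 and 20331 UMIs per cell before thinning. The control share of the 6 genes in erythroid progenitor-like cells lay in a similar range, but the sources differ. In control myeloid progenitor-like cells Elane had a UMI in 93.8% to 99.1% of thinned cells, and the 6 genes in 6.25% to 27.1%. The Elane share is therefore no estimate of the free RNA of the 6 genes, and how much of their share is free RNA was not tested. The fold changes of this class use the same control cells and share this limit. Elane is a single abundant gene, the share of myeloid progenitor-like cells was lower at 3 h, and free RNA of the 6 genes themselves was not measured.

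Genes outside the 8 whose level followed theirs most closely over the 16 mice were mostly ISGs. By Pearson's r of log2 CPM over 16 mice, which share 4 time points, the closest to Parp9 was Mndal (0.999), and Ifi47 (0.997) was among the closest to Parp14. Dtx3l was nearest to Trim12a (0.997), Parp10 to Herc6 (0.994), Parp11 to Tdrd7 (0.991) and Parp12 to Ifi203 (0.993). For Parp1 and Parp2 the nearest genes, Opa3 (0.903) and Slco3a1 (0.895), were less alike. These values are a description of the time course and carry no p.

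Other genes of the pathway were read from fixed lists, beside 19.7%, 14.5% and 18.9% of all tested genes that were changed and higher at 3, 24 and 72 h and 19.2%, 13.8% and 18.5% that were lower. All of the lists were read in the whole compartment only, a mixture whose class shares differed between groups. The part of these shares in the list results was not tested. Of 9 further PARP family genes, 5 rose and none fell at 3 h, 3 rose at 24 h and 2 at 72 h, with medians of 0.38, 0.19 and 0.21 on the log2 scale. Only Zc3hav1, a zinc-finger antiviral protein of this family, exceeded a log2 fold change of 1 among them, with 53.7 ± 5.66 CPM in control and 134 ± 9.67 CPM at 3 h (SD, n = 4 mice each), which is 1.27 on the log2 scale (standard error 0.0658, adjusted p = 2.50e-13, edgeR). Of the 8 genes of NAD+ supply, 2 rose and 1 fell at 3 h, led by Nampt, the rate-limiting enzyme of NAD+ salvage, from 32.6 ± 0.616 to 92.5 ± 4.30 CPM (SD, n = 4 mice each, log2 fold change 1.5, adjusted p = 4.53e-15, edgeR). At 72 h 2 of the 8 were lower, Nampt (-0.20, adjusted p = 0.0229) and Slc25a51 (-0.20), and 2 were higher, Naprt (0.66, adjusted p = 0.000581) and Nmnat3 (0.23, adjusted p = 0.0116). Of 6 tested enzymes that remove ADP-ribose, 1 was lower at 3 h and at 72 h, Adprh (-0.25, adjusted p = 0.00145, and -0.23, adjusted p = 0.00142), and none was higher at any time point.

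Of 6 tested DNA repair partners of Parp1, 3 fell and 1 rose at 3 h, 2 fell at 24 h, and 2 fell and 1 rose at 72 h. Among the 3 tested deltex ligases other than Dtx3l, Dtx4 fell from 7.62 ± 0.679 to 4.16 ± 1.61 CPM at 3 h (log2 fold change -0.91, adjusted p = 0.000385, edgeR) and stayed lower at 24 h (-0.66) and 72 h (-0.58). Dtx3 missed the threshold at 3 and 24 h and was higher at 72 h (0.43, adjusted p = 0.000346), and Dtx2 passed at no time point. For comparison, 12 listed ISGs, among them Irf7, Isg15, Usp18, Ifit1, Mx1, Oasl1 and Rsad2, all rose at 3 and 24 h, with a median log2 fold change of 5.65 and 1.94 against 3.05 and 0.80 for the 6 interferon-linked genes here. At 72 h, 1 of the 12 passed the test, Ifit3, which was lower (-2.39, adjusted p = 0.0134, edgeR), from 4.16 ± 5.96 CPM in control (SD, n = 4 mice).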

How the data were processed

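Single-cell transcriptomes of 16 mice were in 4 libraries. The deposited counts are UMI counts per gene and barcode that the authors made with Cell Ranger 3.1.0 on mm10. The deposited hashtag tables hold, per barcode, a margin score and a Seurat call, whose normalization is not given in the sources used here. Barcodes called as doublet or negative, with over 5% mitochondrial UMIs or under 700 genes were removed, which left 10046 of 13310. No further doublet caller was run.

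Counts were summed per mouse, and per mouse and class with at least 10 cells, and tested with edgeR 4.0.16 (quasi-likelihood, TMM, filterByExpr) in R 4.3.3. Intervals use the fit's standard errors and 12 residual degrees of freedom. Equal-weight and within-mouse alternatives used limma 3.58.1 with a prior count of 2 on log2 CPM, and DESeq2 1.42.0 was a further alternative. Control cells were clustered with Scanpy 1.11.5 (Leiden, resolution 0.8, 500 variable genes), and treated cells took labels after mutual nearest neighbor correction. The fits were tested on simulated data.

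The text names the 8 genes, their 3 most alike genes at most, and genes of fixed lists that passed the test. The genes and lists were chosen with earlier results of these data known. Some genes of the lists and of the most alike genes are not reported here by name. P-values measure the spread between mice of one library per time point.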

Additional observations from a re-analysis of the deposited data

Results flagged for a closer look

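Of 168 groups of 4 mice tested with Dixon's criterion at the 95% level, 15 held a mouse far from the others, where chance flags about 1 in 20 groups, and 6 of the 15 were control mouse 4 with its 58 cells. In the whole compartment Parp1 was at 134 CPM in that mouse. In its 12 HSC-like cells Parp14 was at 7.36 CPM and Parp2 at 22.1 CPM, and in its 16 myeloid progenitor-like cells Parp9 was at 16.9 CPM and Parp10 and Parp11 at 0 CPM. In HSC-like cells of other mice the values were 31.2 CPM for Parp14 and 110 CPM for Parp1 in 24 h mouse 3, 5.2 CPM for Parp12 in 72 h mouse 4, and for Parp2 89.5 CPM in 3 h mouse 1 and 62.0 CPM in 72 h mouse 3. In the other classes they were 89.7 CPM for Parp14 in myeloid progenitor-like cells of 3 h mouse 2, 145 CPM for Parp1 in erythroid progenitor-like cells of 3 h mouse 3, and in MK progenitor-like cells 29.1 CPM for Parp9 in 72 h mouse 3 and 65.3 CPM for Parp2 in 24 h mouse 2.

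The change against control differed between a class and HSC-like cells by an interaction term (edgeR) for 7 differences on the log2 scale. At 3 h these were 1.29 for Parp14, 1.31 for Parp12 and 0.85 for Dtx3l in erythroid progenitor-like cells and -1.09 for Parp11 in myeloid progenitor-like cells. At 24 h they were 1.46 for Parp12 and 0.87 for Parp14 in myeloid progenitor-like cells and 0.85 for Parp9 in erythroid progenitor-like cells. None of the 7 passed with limma-trend on within-mouse differences.

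Barcodes without a hashtag call entered no comparison. Among those that passed the other cell filters, 11 at 3 h summed to 175 CPM for Parp9, 313 CPM for Dtx3l, 163 CPM for Parp14 and 75.1 CPM for Parp12, and 58 at 24 h to 40.3 CPM for Parp9 and 61.8 CPM for Dtx3l. At 3 h Parp11 had no UMI there (0 CPM, against 8.46 CPM in control), and Parp10 was at 37.5 CPM with an interval of 7.74 to 110 CPM that overlapped with control. The 43 such control barcodes summed to 8.46, 16.9, 22.6 and 2.82 CPM for Parp9, Dtx3l, Parp14 and Parp12. The exact Poisson 95% intervals, which cover counting error only, did not overlap with those of control for the values of Parp9, Dtx3l, Parp14 and Parp12 given here (Parp9 at 3 h 95.8 to 294 CPM against 1.75 to 24.7 CPM).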

How the results depend on the processing

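The 3 h rises of the 6 interferon-linked genes, and the count of 6, remained past the threshold under every alternative run, and so did those of Parp9, Dtx3l, Parp14 and Parp12 at 24 h. Parp11 at 24 h passed under some alternatives, among them a limit of 10% mitochondrial UMIs (adjusted p = 0.0450, edgeR) and the hashtag number as a block (adjusted p = 0.0385, edgeR). The count of Parp1 and Parp2 changed at 3 h fell from 1 to 0 without the filter on low counts and with thinning to 5000 UMIs. Thinning lowered the 72 h count of interferon-linked genes from 2 to 1 and the changed genes to 2586, 1230 and 1872 at 3, 24 and 72 h (from 4675, 3405 and 4500). Thinning also moved Parp14 at 72 h to -0.049 (adjusted p = 0.874, edgeR), of the other sign but not past the threshold. With it Parp10 at 24 h missed the threshold (0.48, adjusted p = 0.175, edgeR). Equal weight for the classes gave 0 genes over a log2 fold change of 1 at 24 h, 0 changed at 72 h, and 977 and 1424 changed genes at 24 and 72 h. Under it Parp14 at 72 h was at -0.036 (adjusted p = 0.856, limma-trend), again of the other sign but not past the threshold. Scaling by library size alone moved Parp1 at 3 h from 0.004 to -0.15 (adjusted p = 0.0174, edgeR) and lowered Parp2 at 3 h to 0.03 (adjusted p = 0.810, edgeR). It gave 1 changed gene in HSC-like cells at 72 h (Parp14) and 1 in MK progenitor-like cells at 24 h. The MK progenitor-like count at 24 h was 0 without neighbor correction and 4 with labels made without interferon genes. Between classes, limma-trend gave 0 at 3 h and 0 at 24 h, and without control mouse 4 in addition, an alternative chosen after seeing the data, 1 and 0. The 72 h ratio count was 2 with Parp1 alone and 0 with Parp2 alone. The causes were not tested.

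Deviations of mice with the same hashtag number had r from -0.06 to 0.09 (mean 0.018, 0 of 24 pairs over 0.1). For mice of other numbers r ran from -0.12 to 0.14 (mean -0.006). Of 16 mice, 9 were nearest to their own number, although same-numbered mice were the smaller part of the possible matches. The count expected without a link between them was not worked out. Whether same-numbered mice share more than a name was not tested. With the hashtag number as a replicate block, Parp1 and Parp2 changed at 3 h fell to 0. Genes over a log2 fold change of 1 at 24 h rose to 2, and all genes changed at 3 h were 4674.

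Leaving out single mice gave 0 to 1 for Parp1 and Parp2 at 3 h, 1 to 2 genes over a log2 fold change of 1 at 24 h, 1 to 2 changed at 72 h, 0 to 1 at 72 h in each of the HSC-like, LMPP-like and myeloid progenitor-like classes, 2 to 4 in erythroid and 0 to 2 in MK progenitor-like cells at 24 h, and 1 to 5 (3 h) and 1 to 3 (24 h) between classes. Depth limits low levels within classes, such as that of Parp12 in erythroid progenitor-like control cells, which rests on 5 to 7 UMIs per mouse.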
